A study of Mus musculus with 29 samples.

Results

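Splenic macrophages with low surface Ly6C were compared between Rnaset2-/- mice and wild-type mice across the transcriptome. The members were the 7 libraries of this sort, 4 from Rnaset2-/- and 3 from wild-type mice, of 29 libraries in the series, and the 10295 genes of the 23930 listed that reached 1 RPM (reads scaled to the same total in each library) in at least 3 of these 7 libraries. The study asked how macrophages of the spleen and liver change when RNase T2 is lost. Ly6C-high macrophages of the spleen, both subsets of the liver and wild-type Kupffer cells make up the other libraries.

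Rnaset2-/- mice lack both Rnaset2a and Rnaset2b, the pair of mouse genes that encode RNase T2, and wild-type mice were C57BL/6. The labels name no treatment for either group, and the age of the mice used for RNA-seq was not stated in the sources used here. Splenocytes were depleted of lymphoid, granulocytic and erythroid cells on magnetic beads, and CD11b+ NK1.1- Ly6G- cells with low Ly6C and high CD16.2 were then sorted. CD16.2 is the product of Fcgr4, so the level of Fcgr4 is bound to the gate and is not an independent finding. Both genes of RNase T2 and the genes of Ly6C were not analysed here, so neither the knockout nor the Ly6C gate was checked at the RNA level.

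RNase T2 is an endoribonuclease of endosomes and lysosomes that cuts single-stranded RNA, including RNA that toll-like receptors of the same compartments bind. Ly6C-low monocytes and macrophages arise largely from Ly6C-high monocytes under the nuclear receptor NR4A1, patrol vessels, clear debris and carry the activating receptor CD16.2. Many of their surface receptors come as opposed pairs: activating receptors pass signals through adaptors with an immunoreceptor tyrosine-based activation motif (ITAM) and the kinase SYK, and inhibitory receptors carry an inhibitory motif (ITIM) that recruits phosphatases.

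The 7 libraries held 14059645 to 14572065 reads, with a median of 14193723, and 3 reads corresponded to 0.206 to 0.213 RPM. Values are given below, with standard errors (SE) where a fold change is stated, for Rnaset2-/- replicates 1 to 4 and wild-type replicates 1 to 3, in that order. The Rnaset2-/- libraries were not alike. Along the first principal component, which held 61.5% of the variance, the wild-type libraries lay at -31.9, -36.3 and -35.9 and the Rnaset2-/- libraries at 65.7, 31.1, 1.87 and 5.34, so that replicates 1 and 2 stood apart from replicates 3 and 4. Summed over 16 markers of neutrophils and their precursors, the Rnaset2-/- libraries held 43322, 24367, 4639 and 3656 RPM and the wild-type libraries 1339.9, 2591 and 1147 RPM. Summed over 13 erythroid markers they held 1387, 399.7, 102 and 121 RPM against 70.2, 135 and 57.5 RPM. Both marker sums were highest in Rnaset2-/- replicate 1. Y-linked genes summed to 301 RPM in Rnaset2-/- replicate 2 and to at most 0.071 RPM in each of the other 6 libraries, and Xist was read at 664, 0.781, 611 and 744 RPM in Rnaset2-/- and 695, 476 and 593 RPM in wild-type libraries. Because of these differences, the counts of each list and the genes most affected are also given without Rnaset2-/- replicates 1 and 2. These libraries were left out after the data were seen. The replicates kept, 3 and 4, were the most alike Rnaset2-/- pair (correlation of log2 levels 0.997, against 0.977 to 0.990 for other pairs). A smaller spread in a group lowers p-values, so calls and p-values of that fit describe these libraries and are not independent support.

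The label of the sort was checked on genes that mark monocytes and macrophages. Their sum over 12 markers was 17649 to 20054 RPM in Rnaset2-/- and 19535 to 20177 RPM in wild-type libraries, and none of the 12 was at 0. In Ly6C-high libraries the sum was 25795 to 31760 RPM in Rnaset2-/- and 29513 to 29907 RPM in wild type, so it does not check the subset. By the test given below, 3 of the 12 were called higher (Fcgr4, Adgre1 and Fcgr1) and 0 lower (3 and 2 without Rnaset2-/- replicates 1 and 2). Csf1r, the M-CSF receptor, was read at 1154, 1482, 2008 and 2037 RPM in Rnaset2-/- and 1982, 1380.5 and 1519 RPM in wild-type libraries (log2 fold change 0.03, adjusted p = 0.959). Fcgr4 was read at 3394, 3231, 4238 and 4635 RPM in Rnaset2-/- and 781, 769 and 821 RPM in wild-type libraries. In Ly6C-high libraries the same gene lay at 32.1 to 40.6 RPM in wild type and 112 to 157 RPM in Rnaset2-/-. No list of markers of another cell type was wholly at 0, and the levels of these lists are set out by library in the plot of summed markers. In sorted bulk RNA, fewer cells of a type and less RNA per cell cannot be told apart.

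**Figure D1:**
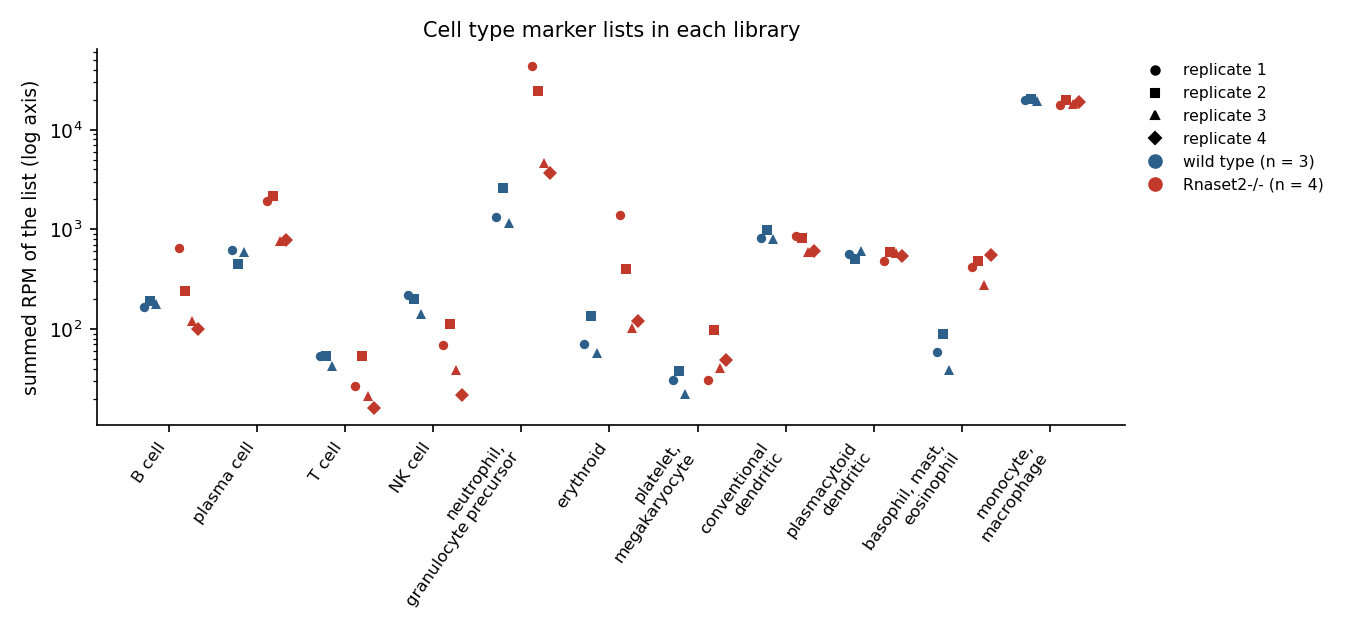
Summed RPM (log axis) of the markers of each cell type in the 3 wild-type and 4 Rnaset2-/- libraries, 1 point per library. Neutrophil precursor and erythroid markers were highest in Rnaset2-/- replicate 1 (43322 and 1387 RPM), while monocyte and macrophage markers stayed between 17649 and 20177 RPM in all 7 libraries.

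Loss of RNase T2 went with 417 genes called higher and 443 called lower, at more than 1.5-fold with a Benjamini-Hochberg adjusted p below 0.05 in limma, 2-sided (4.05% and 4.3% of the 10295 tested, 8.35% together). The median log2 fold change over all tested genes was 0.01. At 4-fold or more, 91 genes were higher and 35 lower. Every Rnaset2-/- library lay above every wild-type library for 1475 genes (14.3%) and below for 1682 genes (16.3%), 30.7% in either direction, and this held for 417 of the 417 genes called higher and 442 of the 443 called lower. The exception was Klri1, an NK cell receptor gene named here for that reason after its values were seen. A lack of overlap is stated below for single called genes as a description and adds no support beyond the call. An exact 2-sided rank test of 4 against 3 libraries has 35 splits and cannot go below p = 0.0571, so no single gene was tested that way.

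The calls rested on few libraries. Below, a call is said to be lost without a library where the fit that left out that library alone no longer passed. In each of the 7 fits that left out 1 library, 89 of the higher and 40 of the lower genes were called, and the number of calls was lowest when wild-type replicate 3 was left out (98 higher, 47 lower), followed by wild-type replicate 2 (119 and 71), wild-type replicate 1 (191 and 166) and Rnaset2-/- replicate 2 (240 and 257). Without Rnaset2-/- replicates 1 and 2, 1232 of 9939 genes were called (12.4%), 615 higher and 617 lower, and 700 of the 860 genes were among them (331 higher, 369 lower). Of the 91 named genes that were called, 54, 41 and 41 kept the call without wild-type replicates 1, 2 and 3, and 91, 71, 85 and 80 without Rnaset2-/- replicates 1 to 4. Without Rnaset2-/- replicates 1 and 2, 86 of the 91 could be tested and 83 were called, Tlr13, Manba and Itgb7 being the exceptions, while the other 5, Alas2, Cldn10, Lox and Lipg among them, had too few libraries at 1 RPM for a test. Nothing in the labels says whether replicates were separate mice, so the p-values measure the spread between these libraries.

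**Figure D2:**
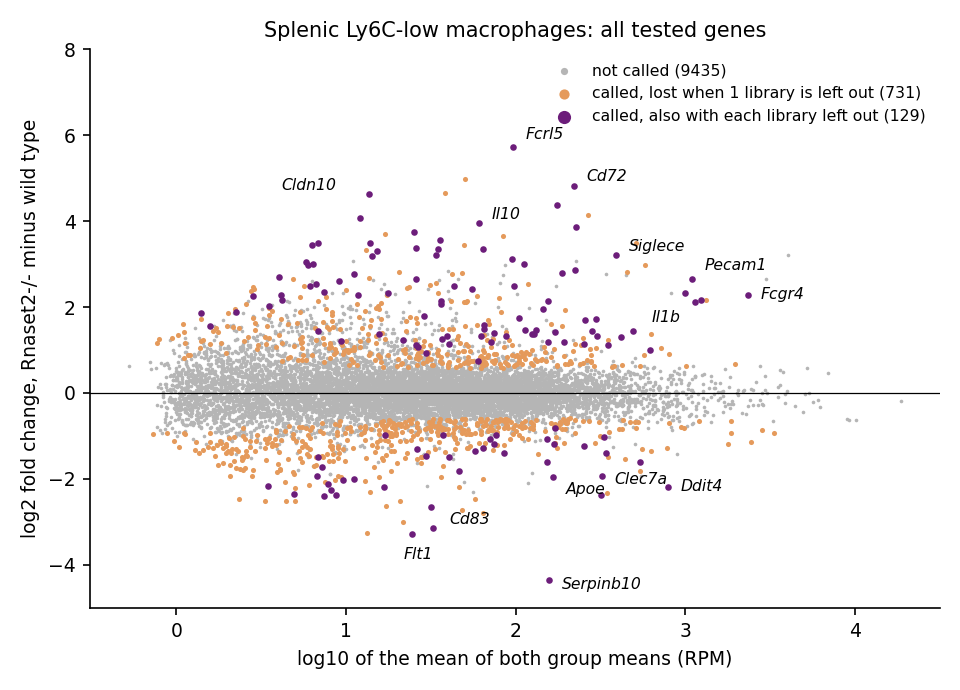
Log2 fold change of Rnaset2-/- over wild type (vertical, on the log2(RPM + 1) scale) against the mean level (horizontal, log10 RPM) for the 10295 tested genes. Of the 860 genes called, 129 were also called in each of the 7 fits without 1 library and 731 lost the call in at least 1 of them.

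Inhibitory receptors, most of them with an ITIM, were called more often than all tested genes (4.05% higher and 4.3% lower, shares that stand beside every list below). The list was chosen with earlier results of these data known and holds Fcrl5 and Cd72, so its share is not independent support. Of 24 genes listed, 21 were tested, and 8 were called higher and 3 lower, with a median log2 fold change of 0.08 (8 higher and 4 lower without Rnaset2-/- replicates 1 and 2). Fcrl5 encodes an Fc receptor-like protein that binds immunoglobulin and dampens B cell receptor signals. It was read at 271, 136, 164 and 194 RPM in Rnaset2-/- and 3.36, 2.88 and 1.62 RPM in wild-type libraries, and the lowest Rnaset2-/- library, replicate 2, was far above the highest wild-type library (log2 fold change 5.72 with an SE of 0.25, adjusted p = 1.82e-05). Cd72, a C-type lectin-like inhibitory receptor best known from B cells, was read at 635, 344, 335 and 386 RPM in Rnaset2-/- and 14.05, 15.03 and 11.8 RPM in wild-type libraries (log2 fold change 4.83 with an SE of 0.21, adjusted p = 1.82e-05). Siglece encodes the sialic acid-binding inhibitory receptor Siglec-E of myeloid cells and stood at 883, 588, 638 and 723 RPM in Rnaset2-/- and 76.1, 79.3 and 70.6 RPM in wild-type libraries (log2 fold change 3.21 with an SE of 0.14, adjusted p = 1.82e-05). For Pecam1, the adhesion molecule CD31, the values were 1456, 2195, 1904 and 1975 RPM in Rnaset2-/- and 300.5, 324 and 266 RPM in wild-type libraries (log2 fold change 2.66 with an SE of 0.18, adjusted p = 0.000125). The groups did not overlap for any of these 4 receptors, as for nearly all called genes. All 4 kept their call in each fit without 1 library, and without Rnaset2-/- replicates 1 and 2 their log2 fold changes were 5.72, 4.69, 3.22 and 2.77.

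Other inhibitory receptors of the list moved less evenly. Fcgr2b, the inhibitory Fc receptor for IgG, was read at 56.6, 73.9, 107 and 122 RPM in Rnaset2-/- and 27.7, 27.9 and 28.3 RPM in wild-type libraries, with the higher Rnaset2-/- values in replicates 3 and 4 (log2 fold change 1.59, adjusted p = 0.0132). Clec4a2, which encodes the inhibitory lectin DCIR, was read at 183, 71.8, 35.8 and 43.9 RPM in Rnaset2-/- and 14.2, 19.6 and 11.9 RPM in wild-type libraries (log2 fold change 2.11, adjusted p = 0.0287). Cd200r1, the inhibitory receptor for CD200, is in the list but its product lacks an ITIM. It was read at 109, 28.5, 14.8 and 17.9 RPM in Rnaset2-/- and 3.704, 5.97 and 4.495 RPM in wild-type libraries (log2 fold change 2.48, adjusted p = 0.0323). The latter pair was highest in Rnaset2-/- replicate 1, the library with the most reads of granulocyte precursor markers. The part of such precursors or of Ly6C-high cells in the difference was not tested. Pirb, an inhibitory receptor for MHC class I, rose by a log2 fold change of 0.90 (adjusted p = 0.0106). Cd22, a sialic acid-binding inhibitory receptor of B cells that is also a B cell marker, fell (log2 fold change -2.79, adjusted p = 0.0162), as did Klrg1 (log2 fold change -1.16, adjusted p = 0.0463) and Cd300a (log2 fold change -0.82, adjusted p = 0.0445). Cd22 lost its call without wild-type replicate 1, 2 or 3 (adjusted p = 0.0536 to 0.0829), and the other 6 receptors of this paragraph were called in 1 to 5 of the 7 fits without 1 library.

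**Figure D3:**
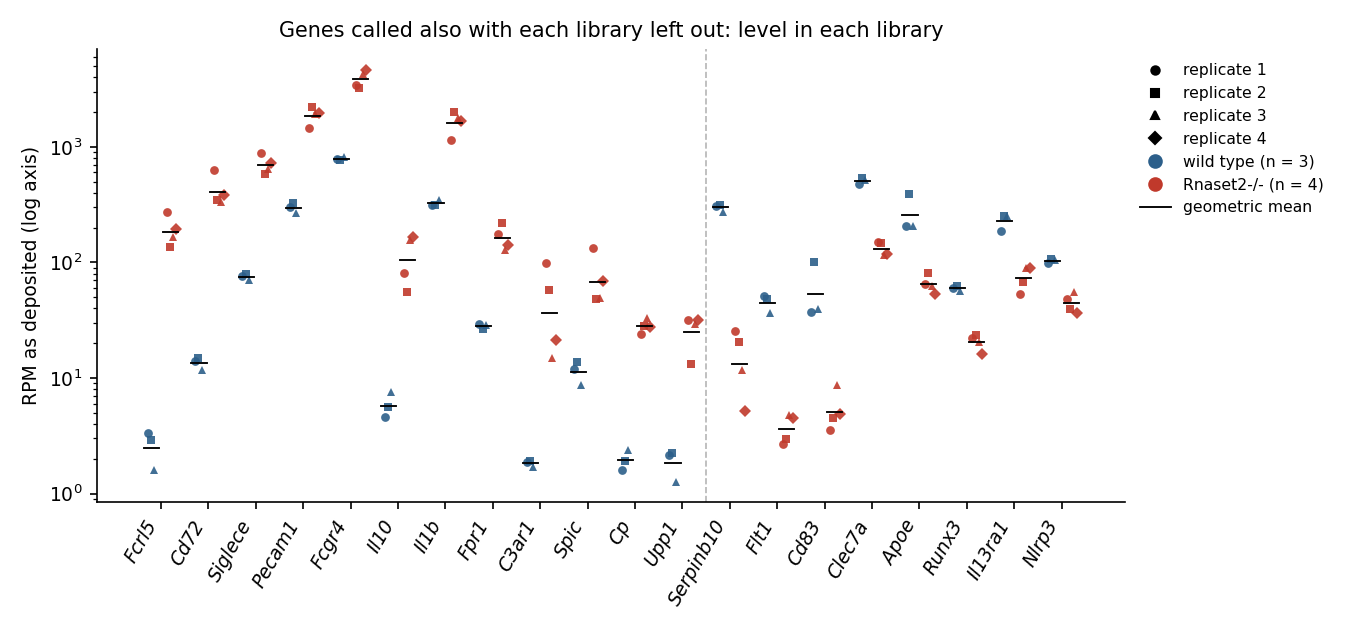
RPM (log axis) of 20 genes in the 3 wild-type and 4 Rnaset2-/- libraries, 1 point per library with a line at the geometric mean of each group. The first 12 genes were called higher and the last 8 lower. The points of the groups did not overlap for any of the 20, as for nearly all called genes. Fcrl5 lay at 136 to 271 RPM against 1.62 to 3.36 RPM and Serpinb10 at 5.14 to 25.3 RPM against 276 to 316 RPM.

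The bases before a listed start of 5 of the genes with the clearest changes are shown as sequence context. They were chosen after their values were seen. The windows are the 250 bases before 1 listed start of each gene in GRCm38.p6, 5′ to 3′ on the strand of the gene. A listed start can differ from the RefSeq gene start. RefSeq places Siglece at chr7:43648882-43672044 and Cd72 at chr4:43447724-43455102, so both windows lie inside the gene spans. The Fcrl5 and Serpinb10 windows end a few bases past the RefSeq starts. At most 9 bases of any window lie in an exon of the GENCODE vM21 annotation. Capitals mark letters of 5 motifs searched on both strands: GAGGAAG (bound by PU.1, the lineage factor of macrophages, and other ETS proteins), TGANTCA (AP-1), TGTGGTT (RUNX), CACGTG (E-box of the TFEB and MITF family) and AAAGGTCA (NR4A half-site).
Fcrl5 promoter, chr3:87435532-87435781, plus strand: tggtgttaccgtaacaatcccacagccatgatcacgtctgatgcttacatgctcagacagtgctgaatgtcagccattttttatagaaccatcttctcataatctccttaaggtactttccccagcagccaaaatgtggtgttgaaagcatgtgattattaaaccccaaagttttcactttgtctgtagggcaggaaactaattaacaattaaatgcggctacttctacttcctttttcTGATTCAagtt
Cd72 promoter, chr4:43454627-43454876, minus strand: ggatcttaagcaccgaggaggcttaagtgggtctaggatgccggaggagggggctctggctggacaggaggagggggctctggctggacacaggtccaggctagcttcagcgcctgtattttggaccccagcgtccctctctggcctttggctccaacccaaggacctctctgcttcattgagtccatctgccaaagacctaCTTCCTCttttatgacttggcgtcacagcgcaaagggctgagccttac
Siglece promoter, chr7:43660162-43660411, minus strand: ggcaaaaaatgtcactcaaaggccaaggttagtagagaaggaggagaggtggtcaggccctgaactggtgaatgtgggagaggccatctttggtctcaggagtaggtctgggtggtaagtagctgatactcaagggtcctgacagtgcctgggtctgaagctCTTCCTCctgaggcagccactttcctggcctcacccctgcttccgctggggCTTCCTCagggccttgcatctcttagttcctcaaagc
Fcgr4 promoter, chr1:171018676-171018925, plus strand: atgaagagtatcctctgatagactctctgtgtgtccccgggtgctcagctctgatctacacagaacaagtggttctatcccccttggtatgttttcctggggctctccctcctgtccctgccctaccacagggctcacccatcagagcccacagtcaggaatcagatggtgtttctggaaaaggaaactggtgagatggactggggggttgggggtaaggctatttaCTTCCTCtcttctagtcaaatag
Serpinb10 promoter, chr1:107528753-107529002, plus strand: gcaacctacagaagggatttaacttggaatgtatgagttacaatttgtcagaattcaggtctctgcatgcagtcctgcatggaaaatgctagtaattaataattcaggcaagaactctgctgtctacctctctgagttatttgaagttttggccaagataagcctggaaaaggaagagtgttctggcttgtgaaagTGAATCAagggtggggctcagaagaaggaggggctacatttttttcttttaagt
Overlapping matches of different motifs were not found in these 5 windows. The Fcrl5 and Serpinb10 windows each hold 1 AP-1 match, starting 11 and 54 bases before the start. Cd72, Siglece and Fcgr4 hold PU.1 matches on the other strand, 1 in Cd72 at 48 bases, 2 in Siglece at 88 and 37 bases and 1 in Fcgr4 at 23 bases before the start. A match of letters is a description and not a binding site.

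Promoter windows were found for 7962 of the 10295 tested genes, 316 of those called higher and 328 of those called lower. The PU.1 letters were in 14.53% of the windows of higher genes, 14.35% of lower genes, 11.52% of tested genes and 10.61% of all 32851 windows. For AP-1 the shares were 4.12% of higher, 5.5% of lower, 4.43% of tested and 6.75% of all windows. RUNX letters were in 2.42% of higher, 5.98% of lower, 3.21% of tested and 4.4% of all windows. The E-box was in 4.36% of higher, 8.37% of lower, 8.33% of tested and 6.02% of all windows. The NR4A half-site was in 0.48% of higher and of lower, 0.85% of tested and 1.34% of all windows. These shares were not tested.

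Activating receptors and their signalling proteins were called in both directions. Of 26 tested, 3 were called higher and 1 lower, with a median of 0.09 (6 and 2 without Rnaset2-/- replicates 1 and 2). Fcgr4, the gate marker, was higher in Rnaset2-/- (log2 fold change 2.28 with an SE of 0.19, adjusted p = 0.000437, 2.55 without replicates 1 and 2). Syk, the kinase recruited by phosphorylated ITAMs, was read at 509, 697, 545 and 616 RPM in Rnaset2-/- and 263, 210.3 and 249 RPM in wild-type libraries (log2 fold change 1.30 with an SE of 0.15, adjusted p = 0.00251). The groups did not overlap for Syk, and its call held in each fit without 1 library. Fcgr1, the high-affinity IgG receptor CD64, rose by less (log2 fold change 0.70, adjusted p = 0.0238). The call of Fcgr1 was lost without wild-type replicate 1, 2 or 3 (adjusted p = 0.0629 to 0.115). In the other direction, Clec7a, which encodes the beta-glucan receptor Dectin-1, was read at 149, 148, 115 and 118 RPM in Rnaset2-/- and 473, 542 and 512 RPM in wild-type libraries (log2 fold change -1.93 with an SE of 0.12, adjusted p = 0.000125). Every Rnaset2-/- library was far below the lowest wild-type library.

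Il10 was the cytokine gene with the largest rise in the lists. It encodes interleukin-10, which restrains macrophage and T cell activation. Il10 was read at 80.4, 55.8, 157 and 167 RPM in Rnaset2-/- and 4.61, 5.56 and 7.52 RPM in wild-type libraries, with replicates 3 and 4 above replicates 1 and 2 (log2 fold change 3.96 with an SE of 0.40, adjusted p = 0.0011). Its log2 fold change was 4.64 without Rnaset2-/- replicates 1 and 2, and the call held in each fit without 1 library. Of the 21 tested genes of the IL-10 pathway and immunoregulatory cytokines, 2 were called higher and 2 lower, with a median of 0.11 (4 and 2 without replicates 1 and 2). Bcl3, a nuclear IκB protein that IL-10 signals induce, was read at 144, 164, 212 and 225 RPM in Rnaset2-/- and 74.01, 67.8 and 68.8 RPM in wild-type libraries (log2 fold change 1.38 with an SE of 0.19, adjusted p = 0.00554) and held in each fit. Tgfb1 fell (log2 fold change -0.66, adjusted p = 0.0148). The call of Tgfb1 was lost without wild-type replicate 1 or 3 (adjusted p = 0.0557 to 0.0895). Havcr2, which encodes TIM-3, fell (log2 fold change -2.004, adjusted p = 0.0302). The call of Havcr2 was lost without wild-type replicate 1, 2 or 3, and without Rnaset2-/- replicate 2 (adjusted p = 0.078 to 0.12).

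Il1b, interleukin-1 beta, was read at 1155, 2008, 1776 and 1666 RPM in Rnaset2-/- and 311, 317 and 348 RPM in wild-type libraries (log2 fold change 2.32 with an SE of 0.20, adjusted p = 0.000579), the groups did not overlap, and the call held in each fit. Of 23 tested genes of inflammasomes and cell death, Il1b was called higher and 5 were called lower, with a median of -0.14 (the same counts, 1 and 5, without Rnaset2-/- replicates 1 and 2). Among the lower genes was Nlrp3, the sensor of the NLRP3 inflammasome, at 47.9, 39.5, 54.97 and 36.7 RPM in Rnaset2-/- and 98.5, 107 and 104 RPM in wild-type libraries (log2 fold change -1.20 with an SE of 0.15, adjusted p = 0.00406), which held in each fit. Nlrp1b was lower (log2 fold change -1.21, adjusted p = 0.0238). The call of Nlrp1b was lost without wild-type replicate 1, 2 or 3, and without Rnaset2-/- replicate 2 or 4 (adjusted p = 0.0516 to 0.105). The flagellin sensor gene Naip5 was lower (log2 fold change -0.94, adjusted p = 0.0199). The call of Naip5 was lost without wild-type replicate 1, 2 or 3 (adjusted p = 0.0618 to 0.0973). Il18 (log2 fold change -0.88, adjusted p = 0.0362) and Aim2 (log2 fold change -0.67, adjusted p = 0.0313) were also called lower, in 1 and 2 of the 7 fits without 1 library.

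Among 17 tested chemokines, 2 were called higher and 1 lower, with a median of 0.26 (4 and 3 without Rnaset2-/- replicates 1 and 2). Ccl3, a ligand of CCR1, was read at 1021, 1999.8, 2452 and 3234 RPM in Rnaset2-/- and 524, 362 and 483 RPM in wild-type libraries, lowest in replicate 1 of the Rnaset2-/- group (log2 fold change 2.16, adjusted p = 0.0137). Ccl4, a related inflammatory chemokine, was read at 19.2, 13.8, 33.9 and 34.8 RPM in Rnaset2-/- and 7.199, 6.04 and 6.46 RPM in wild-type libraries (log2 fold change 1.72, adjusted p = 0.0194). Without Rnaset2-/- replicates 1 and 2 the log2 fold changes of Ccl3 and Ccl4 were 2.70 and 2.28. Ccl3 lost its call without wild-type replicate 2 or 3 (adjusted p = 0.0667 to 0.0748), and Ccl4 without wild-type replicate 1, 2 or 3 (adjusted p = 0.0577 to 0.0884). Ccl5, a chemokine gene also active in NK and T cells, fell (log2 fold change -2.47, adjusted p = 0.0229). The call of Ccl5 was lost without wild-type replicate 1, 2 or 3 (adjusted p = 0.0777 to 0.105). Summed NK cell markers were also lower in Rnaset2-/- libraries, at 68.3, 111, 38.4 and 21.6 RPM against 222, 202 and 141 RPM, and their part in the fall of Ccl5 was not tested. Both falls were also seen in splenic Ly6C-high libraries. There the NK cell markers summed to 981 to 1042 RPM in wild type and 105 to 239 RPM in Rnaset2-/-, and the log2 fold change of Ccl5 was -2.84.

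Receptors for chemoattractants moved in both directions. Of 25 tested, 3 were called higher and 6 lower, with a median of -0.27 (3 and 8, median -0.55, without Rnaset2-/- replicates 1 and 2). C3ar1, the receptor for the complement fragment C3a, was read at 98.9, 57.4, 15.04 and 21.3 RPM in Rnaset2-/- and 1.89, 1.92 and 1.69 RPM in wild-type libraries (log2 fold change 3.75 with an SE of 0.54, adjusted p = 0.00635), highest in replicate 1 but above all wild-type libraries also in replicates 3 and 4 (log2 fold change 2.79 without replicates 1 and 2). Fpr1 binds formylated peptides of bacteria and mitochondria, and was read at 176, 221, 128 and 140.2 RPM in Rnaset2-/- and 29.2, 26.6 and 28.7 RPM in wild-type libraries (log2 fold change 2.50 with an SE of 0.17, adjusted p = 0.000151). The related receptor gene Fpr2 also rose (log2 fold change 1.16, adjusted p = 0.0183). C3ar1 and Fpr1 held in each fit without 1 library. Cxcr4, the receptor for CXCL12 that retains monocytes in bone marrow, was read at 776, 1212, 1328 and 1050.0 RPM in Rnaset2-/- and 2240.5, 2709.8 and 2445 RPM in wild-type libraries (log2 fold change -1.19, adjusted p = 0.0154), with no overlap between the groups. The call of Cxcr4 was lost without wild-type replicate 2 or 3 (adjusted p = 0.0778 to 0.0816). Ccr7, a receptor of migrating dendritic cells, fell (log2 fold change -1.96, adjusted p = 0.0412). The call of Ccr7 was lost without wild-type replicate 1, 2 or 3, and without Rnaset2-/- replicate 3 or 4 (adjusted p = 0.0662 to 0.155). The other 4 lower genes were Gpr183 (-1.64), Ccr3 (-1.31), C5ar1 (-0.93) and Ptgir (-0.78), called in 3, 5, 3 and 4 of the 7 fits.

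Complement genes rose more often than they fell. Of 14 tested, 4 were called higher and 1 lower, beside 4.05% and 4.3% of all tested genes. Their median was 0.71 (6 and 1 of 12, median 0.85, without Rnaset2-/- replicates 1 and 2). Among the calls, C3ar1 (higher) and C5ar1 (lower) are receptors that were already counted above with those for chemoattractants. C3, the central component, was read at 916, 782, 707 and 887 RPM in Rnaset2-/- and 391, 458 and 398 RPM in wild-type libraries (log2 fold change 0.99 with an SE of 0.13, adjusted p = 0.00474) and held in each fit without 1 library. C1qb encodes a chain of C1q, which binds dying cells and immune complexes, and was read at 784, 206, 125 and 182 RPM in Rnaset2-/- and 74.2, 65.5 and 53.5 RPM in wild-type libraries. Replicate 1 was far above the other 3 Rnaset2-/- libraries, but all 4 were above the wild-type libraries (log2 fold change 1.94 with an SE of 0.51, adjusted p = 0.0481). The C1qb call was lost without wild-type replicate 1, 2 or 3, and without Rnaset2-/- replicate 2 or 4, adjusted p = 0.064 to 0.162, and without Rnaset2-/- replicates 1 and 2 its log2 fold change was 1.29 (adjusted p = 0.0025). Cfp, properdin, rose (log2 fold change 1.43, adjusted p = 0.0194). The call of Cfp was lost without wild-type replicate 1, 2 or 3 (adjusted p = 0.0561 to 0.0931).

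Heme and iron genes were called often. Of 18 tested, 8 were called higher and 1 lower, with a median of 0.60 (8 and 1, median 0.52, without Rnaset2-/- replicates 1 and 2), beside 4.05% and 4.3% over all tested genes. Spic, the transcription factor of heme-recycling red pulp macrophages, was read at 132, 47.97, 49.2 and 68.6 RPM in Rnaset2-/- and 12.02, 13.7 and 8.78 RPM in wild-type libraries (log2 fold change 2.49 with an SE of 0.32, adjusted p = 0.00407). Cp, the ferroxidase ceruloplasmin, was read at 24.1, 28.03, 33.3 and 27.9 RPM in Rnaset2-/- and 1.61, 1.92 and 2.39 RPM in wild-type libraries (log2 fold change 3.31 with an SE of 0.19, adjusted p = 7.83e-05). Both held in each fit without 1 library. Hmox1, heme oxygenase 1, which breaks heme down to biliverdin, was read at 753, 622, 978 and 1295 RPM in Rnaset2-/- and 362, 338 and 328 RPM in wild-type libraries (log2 fold change 1.36, adjusted p = 0.0168), and was called in 4 of the 7 fits. The biliverdin reductases Blvrb (log2 fold change 1.32, adjusted p = 0.00557) and Blvra (log2 fold change 0.93, adjusted p = 0.0212) rose as well, Blvrb in each fit and Blvra in 4. The iron transporter gene Slc11a2 rose (log2 fold change 0.73, adjusted p = 0.0456) in 1 of the fits. Hp, haptoglobin, rose (log2 fold change 1.29, adjusted p = 0.0135). The call of Hp was lost without wild-type replicate 2 or 3 (adjusted p = 0.0669 to 0.0737). Lcn2, a siderophore-binding protein that is also in the granulocyte marker list, rose (log2 fold change 3.49, adjusted p = 0.0399). The call of Lcn2 was lost without wild-type replicate 1, 2 or 3, and without Rnaset2-/- replicate 2 (adjusted p = 0.0954 to 0.139). Cd163, the receptor that takes up haptoglobin bound to hemoglobin, moved the opposite way, at 3.49, 1.63, 1.56 and 2.68 RPM in Rnaset2-/- and 13.1, 14.96 and 11.9 RPM in wild-type libraries (log2 fold change -2.13 with an SE of 0.24, adjusted p = 0.00202), and held in each fit.

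Genes of red pulp and other tissue macrophages went both ways. Of 23 tested, 5 were called higher and 2 lower, with a median of -0.03 (6 and 3 of 20 without Rnaset2-/- replicates 1 and 2). Adgre1 encodes F4/80 and was read at 212, 316, 297 and 249.9 RPM in Rnaset2-/- and 119, 101 and 135 RPM in wild-type libraries (log2 fold change 1.18 with an SE of 0.18, adjusted p = 0.00803), a call that held in each fit without 1 library. Cd5l encodes the secreted protein AIM and was read at 431, 173, 87.4 and 138 RPM in Rnaset2-/- and 41.5, 24.7 and 24.4 RPM in wild-type libraries, highest in replicate 1 (log2 fold change 2.53, adjusted p = 0.0139, 1.93 without replicates 1 and 2). The Cd5l call was lost without wild-type replicate 2 or 3, adjusted p = 0.0748 to 0.0782. Apoe, apolipoprotein E, was read at 65.2, 80.4, 62.3 and 53.1 RPM in Rnaset2-/- and 207, 390.1 and 207 RPM in wild-type libraries (log2 fold change -1.96 with an SE of 0.23, adjusted p = 0.00282), with no overlap between the groups, and held in each fit. Axl (log2 fold change 0.19, adjusted p = 0.685), Mertk (log2 fold change 0.71, adjusted p = 0.328) and Maf (log2 fold change 0.73, adjusted p = 0.116), which take part in the uptake of dying cells or in tissue macrophage identity, did not pass the test.

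**Figure D4:**
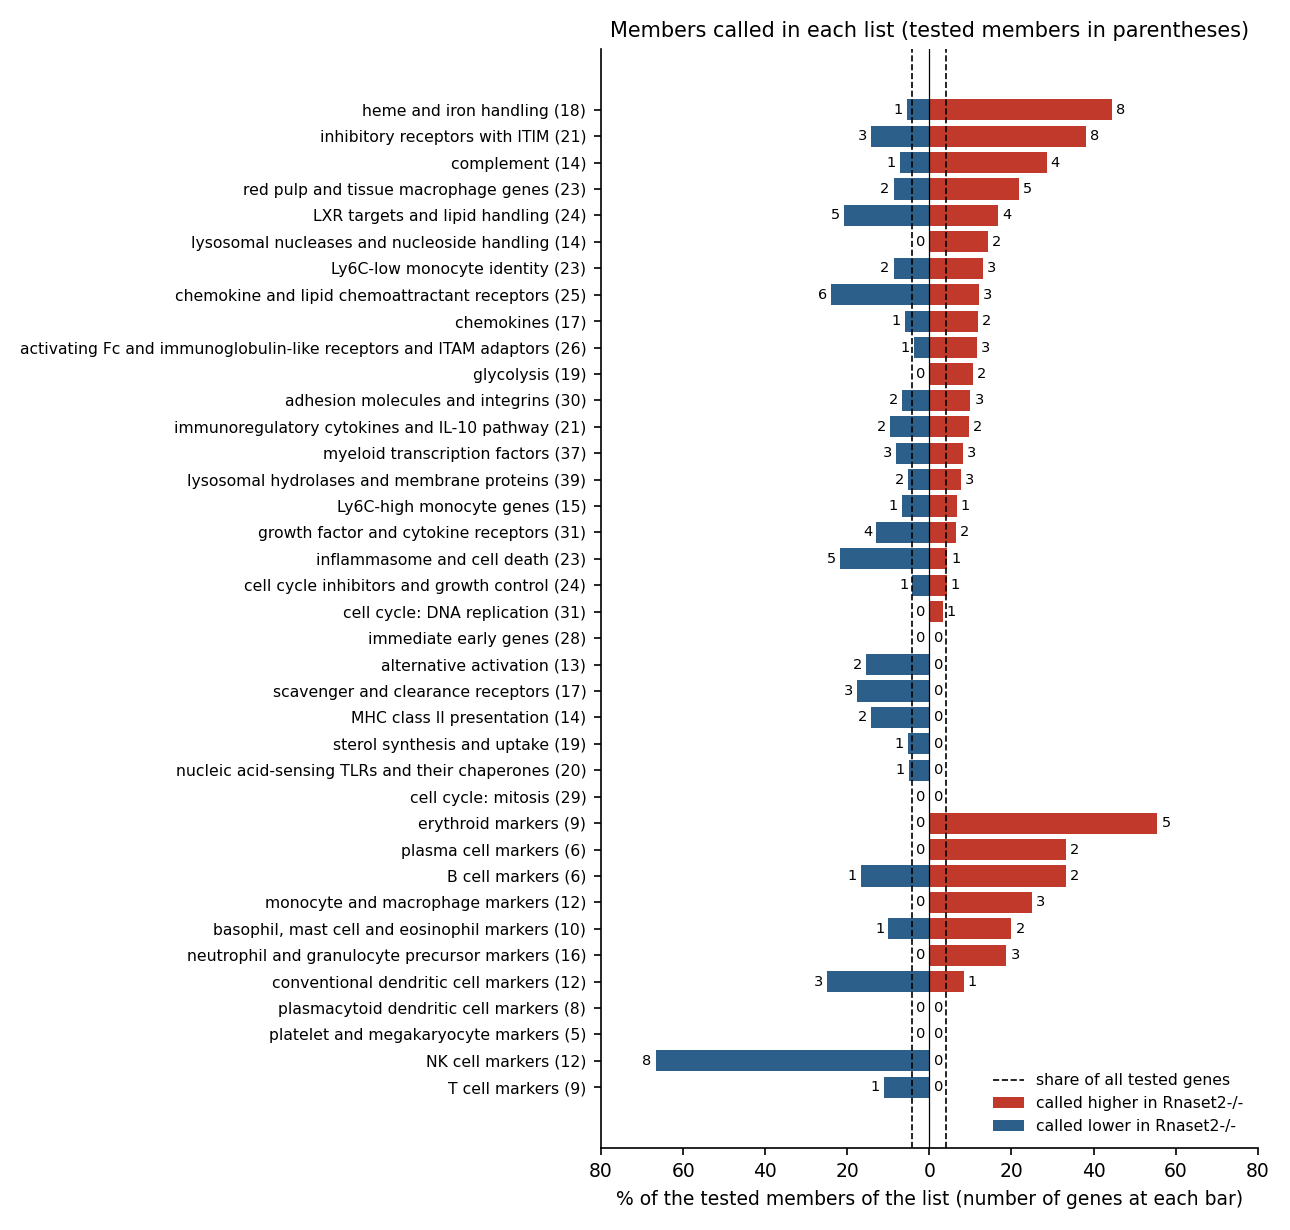
Percent of the tested members of each gene list called higher (right) or lower (left) in Rnaset2-/- Ly6C-low macrophages, with the number of members called at each bar. Dashed lines mark 4.05% higher and 4.3% lower, the shares over all 10295 tested genes. In the list of inhibitory receptors with ITIM 8 of 21 were called higher, Cd200r1 (which lacks an ITIM) among them, and 8 of 18 heme and iron genes were.

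Lipid genes also went both ways. Of 24 tested genes of LXR targets and lipid handling, 4 were called higher and 5 lower, with a median of -0.06 (the same counts, 4 and 5, without Rnaset2-/- replicates 1 and 2). Nr1h3, which encodes the sterol-sensing receptor LXRα, was read at 143, 78.9, 70.1 and 88.3 RPM in Rnaset2-/- and 36.3, 31.98 and 38.7 RPM in wild-type libraries (log2 fold change 1.35 with an SE of 0.21, adjusted p = 0.00971). The call of Nr1h3 was lost without wild-type replicate 2 (adjusted p = 0.0568). Lipg, endothelial lipase, was read at 17.4, 13.7, 8.44 and 6.27 RPM in Rnaset2-/- and 0.14, 0.755 and 0.632 RPM in wild-type libraries (log2 fold change 2.98, adjusted p = 0.00163) and held in each fit without 1 library. With every wild-type library below 1 RPM, Lipg passed the filter only through Rnaset2-/- libraries, so its call is a description and not independent support. Pltp, a phospholipid transfer protein, rose as well (log2 fold change 1.05, adjusted p = 0.00956). Scd1, which makes monounsaturated fatty acids, was read at 9.53, 4.54, 5.04 and 3.31 RPM in Rnaset2-/- and 33.9, 26.01 and 23.7 RPM in wild-type libraries (log2 fold change -2.19 with an SE of 0.28, adjusted p = 0.00368) and held in each fit. Cd36, a scavenger receptor for oxidised lipids that marks Ly6C-low monocytes, was read at 41.5, 181, 149 and 134 RPM in Rnaset2-/- and 563, 604 and 522 RPM in wild-type libraries, lowest in replicate 1 of the Rnaset2-/- group (log2 fold change -2.32, adjusted p = 0.0199). The Cd36 call was lost without wild-type replicate 1, 2 or 3, adjusted p = 0.0629 to 0.0907, and without Rnaset2-/- replicates 1 and 2 its log2 fold change was -1.92. Abca1 (-0.75) and Apoc1 (-0.79) were called lower in 3 and 1 of the 7 fits. Sterol synthesis genes were called lower in 1 of 19 (Cyp51, log2 fold change -0.73, adjusted p = 0.0284, lost without wild-type replicate 1, 2 or 3, and without Rnaset2-/- replicate 4, adjusted p = 0.0585 to 0.11), with a median of 0.02 (1 higher and 3 lower of 18, median -0.08, without Rnaset2-/- replicates 1 and 2). Scavenger receptors were called lower in 3 of 17 tested (Cd36, Cd163 and Clec7a), with a median of 0.14 (1 higher and 3 lower without Rnaset2-/- replicates 1 and 2).

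Genes that mark the Ly6C-low state moved in opposite directions or did not pass the test. Of 23 tested, 3 were called higher and 2 lower, with a median of -0.26 (6 and 2, median 0.09, without Rnaset2-/- replicates 1 and 2). Nr4a1, the nuclear receptor that these cells need, was read at 2449, 4189, 7614 and 6751 RPM in Rnaset2-/- and 5028, 4421 and 5241 RPM in wild-type libraries (log2 fold change -0.02 with an SE of 0.39, adjusted p = 0.981). It was lowest in Rnaset2-/- replicate 1 and highest in replicates 3 and 4, the groups overlapped, and without replicates 1 and 2 it was called higher (0.62, adjusted p = 0.0137). Cx3cr1, the fractalkine receptor, was read at 32.7, 79.1, 121 and 108 RPM in Rnaset2-/- and 97.99, 66.8 and 122 RPM in wild-type libraries (log2 fold change -0.27, adjusted p = 0.713, 0.35 without replicates 1 and 2). Cd9, a tetraspanin, was read at 143, 217, 331 and 294 RPM in Rnaset2-/- and 719.9, 985 and 817 RPM in wild-type libraries (log2 fold change -1.82, adjusted p = 0.0117). The call of Cd9 was lost without wild-type replicate 2 or 3 (adjusted p = 0.0628 to 0.0641). Of 15 tested genes of Ly6C-high monocytes, 1 was called higher (Hp) and 1 lower (Plac8, log2 fold change -0.82, adjusted p = 0.0417, lost without wild-type replicate 1, 2 or 3, and without Rnaset2-/- replicate 3 or 4, adjusted p = 0.0584 to 0.143), with a median of 0.31 (4 higher and 3 lower of 15, median 0.18, without Rnaset2-/- replicates 1 and 2). Ccr2, the receptor by which Ly6C-high monocytes leave the marrow, was read at 36.1, 16.5, 5.82 and 6.2 RPM in Rnaset2-/- and 23.8, 31.9 and 26.9 RPM in wild-type libraries (log2 fold change -1.08, adjusted p = 0.199). Ccr2 overlapped between the groups through replicates 1 and 2 and was called lower without them (-1.96, adjusted p = 0.000172).

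Transcription factors of the myeloid lineage were called higher in 3 of 37 and lower in 3, with a median of 0.17 (6 and 4 without Rnaset2-/- replicates 1 and 2). The higher ones were Spic, Nr1h3 and Mitf, a factor of the MiT family (log2 fold change 1.13, adjusted p = 0.0195). The Mitf call was lost without wild-type replicate 2 or 3 (adjusted p = 0.0841 to 0.0911). Runx3, a factor of lymphocytes and myeloid cells, was read at 22.3, 23.3, 20.4 and 16.3 RPM in Rnaset2-/- and 59.5, 62.9 and 56.96 RPM in wild-type libraries (log2 fold change -1.50 with an SE of 0.14, adjusted p = 0.000707), with no overlap, and held in each fit without 1 library. Cebpa (log2 fold change -0.90, adjusted p = 0.0183) and Id1 (log2 fold change -0.78, adjusted p = 0.0415) were called lower in 4 and 1 of the 7 fits. Adhesion molecules were called higher in 3 and lower in 2 of 30, with a median of 0.04 (6 and 2 without replicates 1 and 2), among them Itga9, an integrin chain, at 63.8, 21.01, 15.1 and 21.7 RPM in Rnaset2-/- and 4.89, 4.05 and 4.85 RPM in wild-type libraries (log2 fold change 2.27, adjusted p = 0.0137). The Itga9 call was lost without wild-type replicate 2 or 3 (adjusted p = 0.0667 to 0.0699). Itgb7 fell (log2 fold change -0.90, adjusted p = 0.0463). The call of Itgb7 was lost without wild-type replicate 1, 2 or 3, and without Rnaset2-/- replicate 2 or 3 (adjusted p = 0.0516 to 0.16).

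Receptors for growth factors and cytokines were called higher in 2 and lower in 4 of 31, with a median of -0.01 (2 and 6 without Rnaset2-/- replicates 1 and 2). Flt1, VEGF receptor 1, was read at 2.703, 2.98, 4.82 and 4.51 RPM in Rnaset2-/- and 51.2, 47.8 and 36.6 RPM in wild-type libraries (log2 fold change -3.28 with an SE of 0.24, adjusted p = 0.000192), with every Rnaset2-/- library far below every wild-type library. Il13ra1, a chain shared by IL-4 and IL-13 receptors, was read at 53.7, 67.2, 88.8 and 89.9 RPM in Rnaset2-/- and 188, 252 and 251 RPM in wild-type libraries (log2 fold change -1.62 with an SE of 0.23, adjusted p = 0.00601). Ifngr1, the ligand-binding chain of the interferon-gamma receptor, was read at 1268, 1815, 1636 and 1306 RPM in Rnaset2-/- and 3042, 3834 and 3119.6 RPM in wild-type libraries (log2 fold change -1.15, adjusted p = 0.0108). The call of Ifngr1 was lost without wild-type replicate 2 or 3 (adjusted p = 0.0581 to 0.0586). Il6st, the signalling chain gp130, fell by less (log2 fold change -0.81, adjusted p = 0.00465) and held in each fit without 1 library, as did Flt1 and Il13ra1. Il21r, the IL-21 receptor, rose in contrast, at 121, 57.3, 78.4 and 119 RPM in Rnaset2-/- and 21.9, 12.01 and 15.8 RPM in wild-type libraries (log2 fold change 2.41 with an SE of 0.29, adjusted p = 0.00308), and held in each fit. Csf3r, the G-CSF receptor, rose as well (log2 fold change 0.80, adjusted p = 0.0263), called in 4 of the 7 fits.

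The receptors that sense RNA in endosomes were not called higher in these cells. Of 20 tested genes of nucleic acid-sensing toll-like receptors and their chaperones, 1 was called lower, with a median of -0.22 (2 of 19 lower without Rnaset2-/- replicates 1 and 2). At an unadjusted limma p below 0.05, 3 of the 20 had positive and 6 negative log2 fold changes, and 6 passed an adjusted p of 0.05 in DESeq2 and 1 in edgeR, in either direction and whatever the fold. Tlr13, the receptor for bacterial ribosomal RNA, was the gene called lower, at 35.2, 41.4, 60.1 and 56.7 RPM in Rnaset2-/- and 107, 86.5 and 74.5 RPM in wild-type libraries (log2 fold change -0.88 with an SE of 0.23, adjusted p = 0.0493). The groups did not overlap, but the call was lost without wild-type replicate 1, 2 or 3, and without Rnaset2-/- replicate 2 or 4, adjusted p = 0.0521 to 0.153, and without Rnaset2-/- replicates 1 and 2 the log2 fold change was -0.53 (adjusted p = 0.0504). Tlr7, a receptor for single-stranded RNA, was read at 169, 312, 269 and 261 RPM in Rnaset2-/- and 479, 298 and 331 RPM in wild-type libraries (log2 fold change -0.54, adjusted p = 0.179). Unc93b1, which carries these receptors to endosomes, was read at 1142, 955, 1044 and 948 RPM in Rnaset2-/- and 880.2, 731 and 839 RPM in wild-type libraries (log2 fold change 0.33, adjusted p = 0.123).

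RNase T2 works in the lysosome. Of 14 tested lysosomal nucleases and genes of nucleoside handling, 2 were called higher (14.3%, beside 4.05% of all tested genes), with a median of 0.25 (4 without Rnaset2-/- replicates 1 and 2). Upp1, uridine phosphorylase, which splits uridine into uracil and ribose phosphate, was read at 31.7, 13.3, 29.2 and 31.8 RPM in Rnaset2-/- and 2.17, 2.27 and 1.26 RPM in wild-type libraries (log2 fold change 3.20 with an SE of 0.32, adjusted p = 0.0011), with replicate 2 the lowest of the Rnaset2-/- libraries. Its call held in each fit without 1 library, and its log2 fold change was 3.51 without replicates 1 and 2. Acp2, lysosomal acid phosphatase, rose by less (log2 fold change 0.81, adjusted p = 0.0399). The call of Acp2 was lost without wild-type replicate 1, 2 or 3, and without Rnaset2-/- replicate 3 or 4 (adjusted p = 0.0522 to 0.155). Lysosomal hydrolases and membrane proteins were called higher in 3 and lower in 2 of 39, with a median of 0.10 (9 and 1 without replicates 1 and 2). Mcoln1, a lysosomal calcium channel, fell (log2 fold change -1.34, adjusted p = 0.0176). The Mcoln1 call was lost without wild-type replicate 2 or 3 (adjusted p = 0.0591 to 0.0656). Manba, a mannosidase, fell (log2 fold change -0.62, adjusted p = 0.0238). The Manba call was lost without wild-type replicate 1, 2 or 3, and without Rnaset2-/- replicate 2 or 4 (adjusted p = 0.0502 to 0.0996). Atp6v0d1, a subunit of the proton pump, rose (log2 fold change 0.74, adjusted p = 0.0426). The Atp6v0d1 call was lost without wild-type replicate 1, 2 or 3, and without Rnaset2-/- replicate 2, 3 or 4 (adjusted p = 0.0596 to 0.094).

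MHC class II genes lay below wild type together without most of them passing. All 14 tested had a negative log2 fold change, with a median of -0.60, and 2 were called lower (8, with a median of -0.71, without Rnaset2-/- replicates 1 and 2). Cd74, the invariant chain that guides class II molecules to endosomes, was read at 1902, 2819, 1694 and 1666 RPM in Rnaset2-/- and 3461, 3762 and 3678 RPM in wild-type libraries (log2 fold change -0.87 with an SE of 0.20, adjusted p = 0.0313), with no overlap between the groups. The call of Cd74 was lost without wild-type replicate 1, 2 or 3, and without Rnaset2-/- replicate 3 or 4 (adjusted p = 0.0611 to 0.125). Cd80, a costimulatory ligand of CD28, fell (log2 fold change -1.30, adjusted p = 0.0238). The call of Cd80 was lost without wild-type replicate 2 or 3 (adjusted p = 0.102 to 0.109). The class II chains H2-Aa (log2 fold change -0.62, adjusted p = 0.144), H2-Eb1 (log2 fold change -1.03, adjusted p = 0.091) and H2-Ab1 (log2 fold change -0.38, adjusted p = 0.306) and the transactivator Ciita (log2 fold change -0.83, adjusted p = 0.229) did not pass with all 7 libraries. Markers of conventional dendritic cells, which express class II highly, summed to 858, 822, 595 and 603 RPM in Rnaset2-/- and 814, 978 and 795 RPM in wild-type libraries, and of 12 tested 1 was called higher (Cd24a, log2 fold change 2.22, adjusted p = 0.0475) and 3 lower, with a median of -0.58 (1 higher and 7 lower of 11, median -0.84, without Rnaset2-/- replicates 1 and 2). Cd24a lost its call without wild-type replicate 1, 2 or 3, and without Rnaset2-/- replicate 2 (adjusted p = 0.107 to 0.162). The 3 lower ones were Ccr7, Cd209a (-2.06) and Wdfy4 (log2 fold change -0.68, adjusted p = 0.0134). The Wdfy4 call was lost without wild-type replicate 2 or 3 (adjusted p = 0.0559 to 0.0608). The part of dendritic cells in the class II levels was not tested.

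Genes of division were highest in the Rnaset2-/- libraries that stood apart. All 29 tested mitosis genes had a positive log2 fold change, with a median of 1.39, but no member was called by limma at the adjusted p, 16 had an unadjusted p below 0.05, and 14 passed an adjusted p of 0.05 in DESeq2 and 0 in edgeR, whatever the fold. The mean log2 level of the list was 5.50, 4.38, 2.96 and 2.95 in Rnaset2-/- and 2.53, 3.12 and 2.35 in wild-type libraries, so that replicates 3 and 4 lay within the wild-type range. Without replicates 1 and 2 the median was 0.34, and no member of 28 was called. Mki67, which encodes the division marker Ki-67, was read at 77.95, 41.7, 10.5 and 12.96 RPM in Rnaset2-/- and 4.96, 13.04 and 5.27 RPM in wild-type libraries (log2 fold change 1.76, adjusted p = 0.108, 0.71 without replicates 1 and 2). Top2a, a topoisomerase of dividing cells, was read at 119, 53.4, 19.4 and 15.6 RPM in Rnaset2-/- and 13.5, 19.1 and 8.71 RPM in wild-type libraries (log2 fold change 1.46, adjusted p = 0.148, 0.44 without replicates 1 and 2). DNA replication genes were called higher in 1 of 31 (E2f1, log2 fold change 0.79, adjusted p = 0.0372, lost without wild-type replicate 1, 2 or 3, and without Rnaset2-/- replicate 2 or 4, adjusted p = 0.0656 to 0.145), with a median of 0.64, and 0.14 without replicates 1 and 2. Of 24 genes that restrain or promote entry into the cycle, 1 was called higher and 1 lower, with a median of 0.03 (1 higher and 2 lower of 23, median 0.11, without Rnaset2-/- replicates 1 and 2). The higher one was Cdkn2a, read at 4.98, 2.13, 2.27 and 1.48 RPM in Rnaset2-/- and 0.14, 0 and 0.07 RPM in wild-type libraries. It passed the filter only through Rnaset2-/- libraries. The lower one was Btg1, an antiproliferative gene (log2 fold change -1.35, adjusted p = 0.0277, lost without wild-type replicate 1, 2 or 3, and without Rnaset2-/- replicate 2, adjusted p = 0.0736 to 0.12).

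Smaller lists are given by their counts. Genes of alternative activation were called lower in 2 of 13, Retnla (log2 fold change -3.25, adjusted p = 0.0175) and Cd209a, with a median of -0.25 (5 lower without Rnaset2-/- replicates 1 and 2). The call of Retnla was lost without wild-type replicate 1 or 3 (adjusted p = 0.0577 to 0.09). Glycolysis genes were called higher in 2 of 19, with a median of 0.19 (5 without replicates 1 and 2). They were Hk3, a hexokinase of myeloid cells (log2 fold change 0.88, adjusted p = 0.0117, lost without wild-type replicate 3, adjusted p = 0.0656), and Pfkfb3, which makes an activator of phosphofructokinase (log2 fold change 1.07, adjusted p = 0.0207). The Pfkfb3 call was lost without wild-type replicate 1, 2 or 3, and without Rnaset2-/- replicate 2 (adjusted p = 0.0544 to 0.0949). Of 28 immediate early genes, 0 were called by limma, 4 had an unadjusted p below 0.05, and 0 passed an adjusted p of 0.05 in DESeq2 or edgeR, with a median of -0.10 (1 higher without replicates 1 and 2).

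Some of the largest changes fell outside the macrophage lists. Serpinb10, a serpin of myeloid cells, was read at 25.3, 20.5, 11.8 and 5.14 RPM in Rnaset2-/- and 306, 316 and 276 RPM in wild-type libraries (log2 fold change -4.36 with an SE of 0.41, adjusted p = 0.000775), lowest in Rnaset2-/- replicate 4, and its log2 fold change was -5.02 without replicates 1 and 2. Cd83, a surface protein of activated antigen-presenting cells, was read at 3.56, 4.47, 8.72 and 4.86 RPM in Rnaset2-/- and 37.3, 102 and 39.8 RPM in wild-type libraries (log2 fold change -3.14 with an SE of 0.39, adjusted p = 0.00363). Dpep2, a dipeptidase that cleaves leukotriene D4, was read at 128, 105, 93.9 and 82.1 RPM in Rnaset2-/- and 475, 627 and 503 RPM in wild-type libraries (log2 fold change -2.38 with an SE of 0.15, adjusted p = 0.000125). The groups did not overlap for any of these 3 genes, which the rule that named them required. Cited4 (-2.66) and Prr33 (-2.40) fell as well, and these 5 genes held in each fit without 1 library. Nrarp, a feedback inhibitor of Notch signalling, fell (log2 fold change -2.71, adjusted p = 0.0493). The call of Nrarp was lost without wild-type replicate 1, 2 or 3, and without Rnaset2-/- replicate 2 (adjusted p = 0.113 to 0.168). Gm32448, a gene model without a name, fell (log2 fold change -2.999, adjusted p = 0.0163). The call of Gm32448 was lost without wild-type replicate 2 or 3 (adjusted p = 0.0813 to 0.0863).

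On the rising side, Wfdc17, a secreted protein with a whey acidic protein domain, was read at 621, 379, 307 and 405 RPM in Rnaset2-/- and 26.3, 29.2 and 27.5 RPM in wild-type libraries (log2 fold change 3.86 with an SE of 0.20, adjusted p = 3.86e-05). Ndrg1, a stress- and hypoxia-responsive gene, was read at 85.8, 80.4, 42.4 and 58.1 RPM in Rnaset2-/- and 5.31, 3.64 and 4.92 RPM in wild-type libraries (log2 fold change 3.56 with an SE of 0.23, adjusted p = 0.000125). Both groups of libraries were clearly separated for each gene, and both calls held in each fit without 1 library. Cldn10, a tight junction claudin, was read at 17.4, 26.5, 31.7 and 32.97 RPM in Rnaset2-/- and 0.14, 0.069 and 0.14 RPM in wild-type libraries. Lox, lysyl oxidase, was read at 63.9, 12.6, 7.45 and 12.6 RPM in Rnaset2-/- and 0.14, 0.069 and 0 RPM in wild-type libraries, highest in replicate 1. Wild-type libraries held at most 0.14 RPM of both genes, which is below the 3-read level, so no fold is given for them, and neither gene was tested without Rnaset2-/- replicates 1 and 2 because too few libraries reached 1 RPM.

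Markers of other cells moved with the genotype. Of 12 tested NK cell markers, 8 were called lower, with a median of -1.89 (11 lower, median -2.15, without Rnaset2-/- replicates 1 and 2), and Gzma (log2 fold change -2.51, adjusted p = 0.0154), Klrb1c (log2 fold change -2.62, adjusted p = 0.0124), Klre1 (log2 fold change -2.39, adjusted p = 0.00866) and Ncr1 (log2 fold change -2.15, adjusted p = 0.0133) were among them. Klrb1c encodes NK1.1, which was used to deplete and gate out NK cells. In splenic Ly6C-high libraries the log2 fold changes of Gzma, Klrb1c, Klre1 and Ncr1 were -3.51, -4.04, -3.67 and -3.07. No difference between the subsets was called for these genes. Gzma lost its call without wild-type replicate 1, 2 or 3 (adjusted p = 0.0587 to 0.0748), Klrb1c without wild-type replicate 1 or 2 (adjusted p = 0.0522 to 0.0648) and Ncr1 without wild-type replicate 1 or 2 (adjusted p = 0.0552 to 0.0682), and Klre1 held in each fit. Of 9 tested T cell markers 1 was called lower (Lck, log2 fold change -1.50, adjusted p = 0.0283), with a median of -0.40 (0 higher and 5 lower of 8, median -1.10, without Rnaset2-/- replicates 1 and 2). Of 10 markers of basophils, mast cells and eosinophils, 2 were called higher and 1 lower (Ccr3), with a median of 0.80 (2 higher and 1 lower of 9, median 0.48, without Rnaset2-/- replicates 1 and 2). Prg2, an eosinophil granule protein, was read at 269, 379.8, 204 and 486 RPM in Rnaset2-/- and 16.01, 27.6 and 6.39 RPM in wild-type libraries (log2 fold change 4.38 with an SE of 0.45, adjusted p = 0.00119). Epx, eosinophil peroxidase, also rose (log2 fold change 3.49, adjusted p = 0.00203). Prg2 and Epx held in each fit, and without Rnaset2-/- replicates 1 and 2 their log2 fold changes were 4.43 and 3.53. Whether these transcripts came from the macrophages or from other cells in the sort was not tested.

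Granulocyte precursor and erythroid markers followed Rnaset2-/- replicates 1 and 2. All 16 tested neutrophil and precursor markers had a positive log2 fold change, with a median of 2.52, and 3 were called higher (9 of 14, with a median of 1.19, without replicates 1 and 2). Those 3 were Lcn2, Ltf (log2 fold change 2.97, adjusted p = 0.0491, lost without wild-type replicate 1, 2 or 3, and without Rnaset2-/- replicate 2, adjusted p = 0.108 to 0.168) and Retnlg (log2 fold change 2.82, adjusted p = 0.0431). The Retnlg call was lost without wild-type replicate 1, 2 or 3, and without Rnaset2-/- replicate 2 (adjusted p = 0.102 to 0.148). Of 9 erythroid markers 5 were called higher, with a median of 2.32 (3 higher and 1 lower of 6, median 1.01, without Rnaset2-/- replicates 1 and 2). Slc4a1, the red cell anion exchanger, was read at 321, 36.3, 17.8 and 25.2 RPM in Rnaset2-/- and 0.28, 1.24 and 0.351 RPM in wild-type libraries (log2 fold change 4.98, adjusted p = 0.0122). The call of Slc4a1 was lost without wild-type replicate 2 or 3 (adjusted p = 0.0527 to 0.066). Alas2, which makes the first heme precursor in red cells, was read at 266, 21.8, 7.09 and 12.8 RPM in Rnaset2-/- and 0.21, 0.206 and 0 RPM in wild-type libraries, with wild-type libraries at or below the 3-read level, so no fold is given. Alas2 was called higher (adjusted p = 0.0246) but lost its call without wild-type replicate 1, 2 or 3, and without Rnaset2-/- replicate 2 (adjusted p = 0.0582 to 0.105), and Hemgn (log2 fold change 2.39, adjusted p = 0.0255) without wild-type replicate 1, 2 or 3, and without Rnaset2-/- replicate 2 (adjusted p = 0.0691 to 0.111). Cells bearing the erythroid antigen TER-119 had been depleted before the sort.

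Markers of B and plasma cells were also highest in Rnaset2-/- replicates 1 and 2. B cell markers summed to 653, 241, 120.2 and 100.3 RPM against 165, 192 and 178 RPM, and plasma cell markers to 1947, 2167, 758 and 786 RPM against 626, 446 and 587 RPM. Of 6 tested B cell markers 2 were called higher and 1 lower, with a median of 0.37 (1 higher and 1 lower of 5, median -0.33, without Rnaset2-/- replicates 1 and 2). Of 6 plasma cell markers 2 were called higher, with a median of 0.77 (2 higher and 1 lower of 6, median -0.03, without Rnaset2-/- replicates 1 and 2). Jchain, the joining chain of IgM and IgA, was read at 493, 1220.2, 180.0 and 156 RPM in Rnaset2-/- and 27.3, 15.99 and 16.9 RPM in wild-type libraries (log2 fold change 4.15, adjusted p = 0.0079). The Jchain call was lost without wild-type replicate 2 or 3 (adjusted p = 0.0512 to 0.0514). Pou2af1 (log2 fold change 3.65, adjusted p = 0.0359) lost its call without wild-type replicate 1, 2 or 3, and without Rnaset2-/- replicate 2 (adjusted p = 0.0913 to 0.132), and Mzb1 (log2 fold change 3.44, adjusted p = 0.042) without wild-type replicate 1, 2 or 3, and without Rnaset2-/- replicate 2 (adjusted p = 0.0999 to 0.141). Cd72 and Fcrl5 are also active in B cells. In Rnaset2-/- replicates 3 and 4 both stood at least at 164 RPM, while summed B cell markers lay below and summed plasma cell markers above every wild-type library, and the part of these cells in the levels of Cd72 and Fcrl5 was not tested. Platelet markers had no call among 5 tested (1 with an unadjusted limma p below 0.05, 1 in DESeq2, 0 in edgeR, median 0.72), and plasmacytoid dendritic cell markers none among 8 (2, 1 and 0, median 0.22).

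To see where the genotype difference was unlike between the subsets, it was compared with that in Ly6C-high macrophages of the same organ (3 libraries of each genotype) in 1 fit of 13 splenic libraries. A difference between subsets can come from a change in either of them. Of 10838 genes tested, the log2 fold change was more positive in Ly6C-low macrophages for 928 (8.56%) and more negative for 777 (7.17%), 15.7% together, at an adjusted limma p below 0.05. Without scaling factors the same counts were 1195 and 508. In Ly6C-high macrophages Cd72 lay at 17.4 to 18.9 RPM in wild type and 7.79 to 16.02 RPM in Rnaset2-/-, and its difference between subsets was 5.44, adjusted p = 3.3e-06. The values of Il10 there were 1.04 to 2.64 and 1.14 to 4.901 RPM, with a difference of 3.57, adjusted p = 0.00317. Serpinb10 was at 315 to 324 and 139 to 186 RPM in Ly6C-high macrophages (difference -3.48, adjusted p = 0.00123). For Siglece the difference was 2.36, adjusted p = 0.000129, and for Ccl3 it was 3.20, adjusted p = 0.00123.

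Fcrl5 was at 0 to 0.14 RPM in wild-type and 4.04 to 5.72 RPM in Rnaset2-/- Ly6C-high libraries. Its difference was 3.27 (adjusted p = 0.000129) on the log2(RPM + 1) scale but -0.33 (adjusted p = 0.787) in edgeR on recovered reads. With wild-type Ly6C-high libraries below the 3-read level for Fcrl5, its fold change there depends on the constant added. For Cp the difference was 1.94, adjusted p = 0.00188, on the first scale and -1.24 (adjusted p = 0.258) in edgeR. Cp lay at 0 to 0.07 RPM in wild-type Ly6C-high libraries, so its fold change there depends on that constant too. Tlr13 was higher in Rnaset2-/- in the Ly6C-high subset, at 44.8 to 47.1 RPM against 97.01 to 157 RPM, and its difference between subsets was -2.43, adjusted p = 0.000733. Fcgr4 (difference 0.35, adjusted p = 0.362), Fpr1 (difference -0.30, adjusted p = 0.473) and Upp1 (difference 0.57, adjusted p = 0.367) had no called difference between the subsets, and the log2 fold changes of these 3 genes in Ly6C-high macrophages were 1.92, 2.79 and 2.63.

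**Figure D5:**
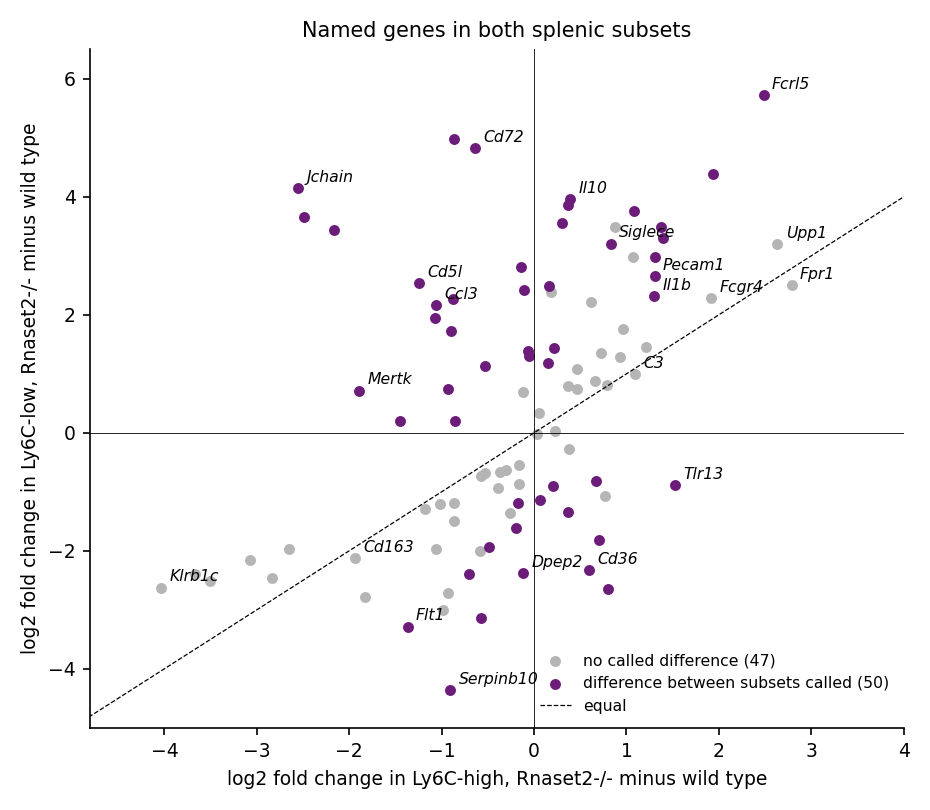
Log2 fold change of Rnaset2-/- over wild type in Ly6C-high (horizontal) and Ly6C-low (vertical) splenic macrophages for 97 of the named genes, with a dashed line where both are equal. For 50 of them the difference between subsets was called, with Cd72 among the genes far above the line and Serpinb10 far below it, and for 47 it was not.

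The same genes were read in hepatic Ly6C-low macrophages, without a test. Across 3 libraries of each genotype, Fcrl5 lay at 1.904 to 2.51 RPM in wild type and 255 to 818 RPM in Rnaset2-/-, and Siglece at 60.1 to 82.4 and 1268 to 1484 RPM. Serpinb10 lay at 327 to 374 RPM in wild type and 0.311 to 0.919 RPM in Rnaset2-/-. Cldn10 was at 0.268 to 0.61 and 0.383 to 0.778 RPM there, and Il10 at 14.7 to 56.4 and 41.1 to 48.8 RPM, so that both genes overlapped between the genotypes in the liver.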

How the data were processed

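Macrophages were sorted, and the authors amplified 1 ng of RNA with the Ion AmpliSeq Transcriptome mouse panel, sequenced it on the Ion Proton, and used the AmpliSeqRNA plug-in to count reads by gene. The authors deposited 1 table of RPM for 29 libraries, and the submitters' processing notes name the build mm10. A panel reads an amplicon per gene, so isoforms are not told apart and close paralogs may share reads. At least 99.99% of values were whole reads within 0.1 reads in each of the 7 libraries, which gave the depth.

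Genes with at least 1 RPM in 3 of 7 libraries were kept, each library was scaled by its relative log expression factor, and log2(RPM + 1) values, a scale that understates changes of low genes, were fitted with limma 3.58.1 in R 4.3.3 (empirical Bayes with trend, 2-sided, Benjamini-Hochberg over all tested genes). Calls needed more than 1.5-fold and an adjusted p below 0.05. Genes below 1 RPM in every wild-type library, such as Lipg, Cldn10, Lox, Alas2 and Cdkn2a, passed the filter only through Rnaset2-/- libraries. Their calls are not independent support. The subset difference was an interaction term, called at an adjusted p below 0.05. The script was tested on simulated data. Alternatives were edgeR 4.0.16 and DESeq2 1.42.0 on recovered reads, other pseudocounts, filters and scalings, a replicate block and leaving out libraries.

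Groups came from the labels. The members, lists and tests were chosen with earlier results of these data known. Genes were named by rule: the 15 largest rises and falls called without overlap and at 10 RPM or more in the higher group, up to 4 called members of each list at that level, and a fixed set, 104 in all, of which 2 are not reported here. Other called members were named to account for a list's count. Promoter sequences came from a reference list of gene starts (GRCm38.p6), some of which differ from the RefSeq gene starts.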

Additional observations from a re-analysis of the deposited data

Results flagged for a closer look

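In 12 of 141 groups of 4 Rnaset2-/- libraries, 1 library lay so far from the other 3 that its gap passed Dixon's 95% critical ratio for 4 values. For independent values with a normal spread, about 1 group in 20 passes by chance. Here single genes were taken on the RPM scale and all groups share the same 4 libraries. The 12 of 141 can therefore not be read against that rate. Rnaset2-/- replicate 1 was the high library for Slc4a1 (321 RPM), Alas2 (266 RPM), Lox (63.9 RPM), C1qb (784 RPM), Itga9 (63.8 RPM), Nlrp1b (18.8 RPM), Maf (82.1 RPM) and Mertk (28.7 RPM), and for the mean log2 level of lysosomal nuclease and nucleoside genes (5.83). Replicate 3 was the high library for Cd22 (43.5 RPM), and replicate 2 the low one for Upp1 (13.3 RPM). Replicate 1 was also the library with the most reads of granulocyte precursor and erythroid markers. The part of those cells, or of Ly6C-high cells, in these values was not tested.

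The effect of the genotype differed between Ly6C-low and Ly6C-high splenic macrophages, at an adjusted limma p below 0.05 for the difference itself, for 56 of 104 named genes. Most of these genes were named for their differences in the same Ly6C-low libraries, which enter this test, so their share cannot be read against the 15.7% of all 10838 genes tested. Values below are the log2 fold change in Ly6C-low minus that in Ly6C-high macrophages. Among inhibitory and activating receptors they were Cd72 5.44, Siglece 2.36, Pecam1 1.33, Syk 1.33 and Clec7a -1.47. Among cytokines, chemokines and their receptors they were Il10 3.57, Bcl3 1.43, Il1b 0.999, Ccl3 3.20, Ccl4 2.61, Cxcr4 -1.04, C3ar1 2.68, Il21r 2.50, Il13ra1 -1.44, Ifngr1 -1.23 and Flt1 -1.95. For tissue macrophage, complement, iron and lipid genes the differences were Cd5l 3.75, Spic 2.32, C1qb 2.995, Cfp 1.19, Lipg 1.67, Scd1 -1.61, Cd36 -2.94, Adgre1 1.01, Axl 1.62, Mertk 2.58 and Maf 1.64. For monocyte, adhesion, lysosomal and RNA-sensing genes they were Cd9 -2.54, Plac8 -1.52, Itga9 3.13, Itgb7 -1.12, Mitf 1.65, Mcoln1 -1.73 and Tlr13 -2.43. Markers of erythroid, plasma, B, granulocytic and eosinophil cells gave Slc4a1 5.84, Jchain 6.69, Mzb1 5.58, Pou2af1 6.12, Retnlg 2.94, Prg2 2.44 and Epx 2.12. The remaining genes gave Wfdc17 3.48, Ndrg1 3.24, Serpinb10 -3.48, Cd83 -2.59, Cited4 -3.48, Prr33 -1.73 and Dpep2 -2.28. A positive difference can also hold a fall in Ly6C-high macrophages. There the log2 fold changes were Cd5l -1.24, C1qb -1.08, Axl -1.45, Mertk -1.90 and Maf -0.93, against Spic 0.16, Cfp 0.22, Lipg 1.30 and Adgre1 0.15. For markers of other cells they were Jchain -2.55, Mzb1 -2.16, Pou2af1 -2.49, Slc4a1 -0.86 and Retnlg -0.14, against Prg2 1.93 and Epx 1.38. In Fcrl5 (adjusted p = 0.000129), Cp (adjusted p = 0.00188), Retnla (adjusted p = 0.0387), Alas2 (adjusted p = 0.0224), Cldn10 (adjusted p = 1.95e-05) and Lox (adjusted p = 0.00441), 1 of the 4 groups or more lay at or below the 3-read level. No difference of folds is listed here for them, and those printed above for Fcrl5 and Cp depend on the constant added. Fcrl5, Cp and Retnla changed sign in edgeR on recovered reads, and in 1 genotype or both of the Ly6C-high subset these genes were near or at 0.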

How the results depend on the processing

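Main counts were 417 higher and 443 lower. They were 250 and 265 with no filter on low values (18211 genes tested), 907 and 693 with DESeq2 on recovered reads, and 908 and 835 in 1 fit of all 13 splenic libraries. Leaving out 1 library gave 98 to 589 higher and 47 to 532 lower, lowest without wild-type replicate 3. With a pseudocount of 0.1 (456 and 432), edgeR (453 and 455) or without Rnaset2-/- replicates 1 and 2 (615 and 617, an alternative chosen after seeing the data) the counts stayed within 1.5 times. Of the 860 genes, 74 higher and 40 lower were called in each of the 15 alternatives. With the replicate number as a block the counts were 462 and 340. Deviations from the group means correlated at -0.068, 0.094 and 0.161 for same-numbered libraries and at -0.199 to 0.198 for other pairs. With so few libraries in a group, these values show no pairing by number but cannot exclude it. For the difference between subsets, 928 more positive and 777 more negative became 1195 and 508 without scaling factors and 602 to 1226 and 477 to 1081 with 1 library left out. Nr4a1 changed sign to 0.62 (adjusted p = 0.0137) without Rnaset2-/- replicates 1 and 2. In edgeR the subset difference changed sign for Fcrl5 (-0.33, adjusted p = 0.787), Retnla (2.40, adjusted p = 0.467) and Cp (-1.24, adjusted p = 0.258). The cause of these changes was not tested, except that leaving out a library also leaves fewer samples. With 14059645 reads or more per library, genes under 3 reads (0.213 RPM at most) give no fold.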

Other observations

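Genes outside the lists also changed with no overlap between the groups and kept their call in each limma fit without 1 library. The 6 given here were chosen after their values were seen. Acod1, which makes the immunometabolite itaconate, was read at 26.8, 18.6, 29.9 and 46.01 RPM in Rnaset2-/- and 5.31, 4.19 and 5.55 RPM in wild-type libraries (log2 fold change 2.32, adjusted p = 0.00366). Irak3 encodes IRAK-M, an inhibitor of toll-like receptor signalling, and was read at 418, 479.9, 372 and 459 RPM in Rnaset2-/- and 151, 175 and 189 RPM in wild-type libraries (log2 fold change 1.34, adjusted p = 0.0012). Ikbke, a kinase of the interferon pathway, was read at 486, 259, 343 and 494 RPM in Rnaset2-/- and 67.9, 41.7 and 48.7 RPM in wild-type libraries (log2 fold change 2.87, adjusted p = 0.000579). These 3 genes of innate signalling were higher in every Rnaset2-/- library. Mmp14, a membrane-bound metalloproteinase, was read at 77.1, 38.6, 60.8 and 81.1 RPM in Rnaset2-/- and 5.73, 4.94 and 4.99 RPM in wild-type libraries (log2 fold change 3.35, adjusted p = 0.000298). Acp5, tartrate-resistant acid phosphatase, was read at 719, 439, 323 and 367 RPM in Rnaset2-/- and 131, 152 and 118 RPM in wild-type libraries (log2 fold change 1.73, adjusted p = 0.00468). Ddit4, an inhibitor of mTORC1, moved the other way, at 545, 223, 246 and 191 RPM in Rnaset2-/- and 1092, 1514 and 1209 RPM in wild-type libraries (log2 fold change -2.18, adjusted p = 0.00602).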
